A study of Mus musculus with 16 samples.

Results

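The clustered histone genes were the 56 genes of the deposited table, out of 18132, whose symbol begins with Hist1h, Hist2h, Hist3h or Hist4h. They comprised 6 genes of the linker histone H1, 15 of H2A, 15 of H2B, 9 of H3 and 11 of H4. The symbol alone decided membership, but the family was chosen by sight of earlier values from these arrays, in which Hist1h2an stood among the rises of IL-33-deficient over wildtype (WT) kidneys after ureteral obstruction. That contrast is therefore given for the family as a description. The response in IL-33 KO kidneys and the difference between the responses use the same obstructed kidneys, so for the H2A genes they are not independent of that choice. Members just inside or outside the rule cannot be named because a symbol has no threshold. The 56 genes lay on chromosome 13 (44 genes), chromosome 3 (8 genes), chromosome 11 (3 genes) and chromosome 6 (1 gene). RefSeq lists 55 of them as protein coding and Hist3h2bb as a transcribed pseudogene.

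Unilateral ureteral obstruction (UUO) closes a ureter with a clip and injures the kidney behind it. Expression was read on Illumina BeadChips, where labeled kidney RNA binds to probes and each gene's brightness follows its transcript. The 16 arrays comprised 7 WT and 5 IL-33 KO kidneys taken 24 h after UUO and 2 WT and 2 IL-33 KO control kidneys, for which the labels do not say whether sham surgery was done. The IL-33 KO mice lack the cytokine IL-33 in every cell and had been backcrossed to Taconic C57BL/6J BomTac (B6JBOM) mice, the labels give the WT mice as C57/BL6, and all were 8 weeks old unless stated otherwise in the methods. The labels place the UUO arrays in set 1 (3 WT, 2 IL-33 KO) and set 2 (4 WT, 3 IL-33 KO), without saying what a set is, and give no set for the controls. The label's own number, such as 3820, serves to name an array. Where kidneys are not stated to come from separate animals, the p-values measure the spread between these arrays.

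Histones are the proteins around which DNA is wound. H2A, H2B, H3 and H4 form the core of the nucleosome, and H1 binds the DNA between nucleosomes. Most clustered histone genes are transcribed in S phase, when new DNA must be packaged, under the control of the coactivator NPAT. Their transcripts usually end in a stem-loop bound by SLBP in place of a poly(A) tail, and some members can also be polyadenylated. The labeling kit starts from poly(A), so the brightness of a member on these arrays need not follow its total transcript. Many members of a core histone class are nearly identical in their coding sequence, and a probe of 1 member may bind transcripts of another. No probe sequences were at hand, so the member that gives a signal is uncertain for all of them. The kidney is whole tissue, in which fewer cells of a type and less RNA per cell cannot be told apart.

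Il33 followed the labels. Its log2 intensity lay between 8.39 and 9.57 in the 7 WT UUO arrays and between 6.80 and 7.02 in the 5 IL-33 KO UUO arrays. The WT controls had 7.62 and 8.02, and the IL-33 KO controls 6.85 and 6.88. The median gene of the table had a mean log2 intensity of 7.05, and the lowest 6.73, which is background and not a true zero, so folds of dim genes are compressed. Array 3820 of the WT UUO group, and less so array 3818, lay nearer to the controls than the rest. The mean log2 intensity over 8 kidney epithelial markers was 10.94 in array 3820, 10.70 in array 3818 and 10.01 to 10.38 in the other 5 WT UUO arrays, against 11.17 to 11.26 in the WT controls. Results in WT that change without array 3820 are given with and without it.

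The promoter windows of 6 members are shown because they belong to genes with the largest rises (H2A, H3) or falls (H4) in IL-33 KO after UUO, or, for Hist1h2an, to the gene that brought the family to notice. RefSeq windows of the GRCm38.p6 build, from 250 bases before to 50 bases after the start site, were at hand for 50 of the 56 members. The windows were chr13:23574131-23574430 (plus strand), chr13:21787199-21787498 (minus strand), chr13:21810117-21810416 (plus strand), chr3:96268404-96268703 (plus strand), chr13:23530794-23531093 (plus strand) and chr13:21734784-21735083 (plus strand), in that order, each read 5′ to 3′ on the gene's own strand. Capitals mark 4 motifs on either strand, namely the TATA letters TATAAA, the NF-Y letters CCAAT, the octamer ATTTGCAT and the H1 promoter letters AAACACA. The window of Hist1h4h holds none of them.
Hist1h2ad: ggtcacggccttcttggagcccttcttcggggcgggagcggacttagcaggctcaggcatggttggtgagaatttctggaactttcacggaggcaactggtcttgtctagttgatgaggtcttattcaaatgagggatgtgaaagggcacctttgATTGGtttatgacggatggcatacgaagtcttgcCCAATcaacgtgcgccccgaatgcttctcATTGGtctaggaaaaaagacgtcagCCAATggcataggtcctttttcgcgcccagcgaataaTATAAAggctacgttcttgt
Hist1h2an: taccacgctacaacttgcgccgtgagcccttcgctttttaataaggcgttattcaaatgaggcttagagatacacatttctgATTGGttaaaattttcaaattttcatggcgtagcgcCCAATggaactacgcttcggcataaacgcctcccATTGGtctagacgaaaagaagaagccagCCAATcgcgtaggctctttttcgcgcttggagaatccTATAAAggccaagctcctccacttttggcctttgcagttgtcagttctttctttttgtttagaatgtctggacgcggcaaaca
Hist1h2ao: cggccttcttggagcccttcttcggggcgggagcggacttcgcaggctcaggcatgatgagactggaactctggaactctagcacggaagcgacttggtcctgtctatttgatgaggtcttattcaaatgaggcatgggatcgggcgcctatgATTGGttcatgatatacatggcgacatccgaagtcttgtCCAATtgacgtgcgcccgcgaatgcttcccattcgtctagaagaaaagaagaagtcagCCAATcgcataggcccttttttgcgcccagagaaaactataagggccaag
Hist2h3b: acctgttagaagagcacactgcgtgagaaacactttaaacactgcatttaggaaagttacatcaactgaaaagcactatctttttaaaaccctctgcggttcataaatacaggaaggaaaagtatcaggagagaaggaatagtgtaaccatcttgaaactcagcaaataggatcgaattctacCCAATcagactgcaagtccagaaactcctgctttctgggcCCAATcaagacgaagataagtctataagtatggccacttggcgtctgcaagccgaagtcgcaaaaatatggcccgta
Hist1h4h: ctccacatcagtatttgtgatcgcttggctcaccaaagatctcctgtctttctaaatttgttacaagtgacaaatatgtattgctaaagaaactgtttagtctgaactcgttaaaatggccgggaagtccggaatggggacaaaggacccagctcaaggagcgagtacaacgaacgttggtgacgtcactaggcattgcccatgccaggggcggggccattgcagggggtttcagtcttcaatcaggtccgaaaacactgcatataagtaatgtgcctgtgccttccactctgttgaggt
Hist1h4j: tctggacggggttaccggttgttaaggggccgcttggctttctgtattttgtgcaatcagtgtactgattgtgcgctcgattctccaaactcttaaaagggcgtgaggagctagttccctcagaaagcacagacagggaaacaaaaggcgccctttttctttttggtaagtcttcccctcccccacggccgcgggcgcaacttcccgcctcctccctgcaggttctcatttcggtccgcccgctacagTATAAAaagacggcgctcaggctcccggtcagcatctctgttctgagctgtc

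TATAAA, the core of a TATA box, was found in the windows of 30 of 50 members (60%), against 13.6% of all 32851 windows of the table. CCAAT, the letters bound by the factor NF-Y, was found in 42 of 50 members (84%), against 37.4% of all windows. It was present in every window of H1 (6), H2A (15), H2B (12) and H3 (7), and in 2 of 10 of H4. The octamer ATTTGCAT, bound by OCT1, was found in 7 of 15 H2A and 7 of 12 H2B windows and in none of the H1, H3 or H4 windows, against 1.74% of all windows. AAACACA was found in 5 of 6 H1 windows and in 9 of 50 members, against 7.18% of all windows. Both strands were searched, matches may share bases at their ends, and a match says only that the letters are there. Among the 6 H2A genes described next as higher in IL-33 KO after UUO, 6 windows held CCAAT, 4 held TATAAA and 1 held the octamer. Of the 7 H4 genes described as lower, 5 held TATAAA and 1 held CCAAT. Positions of TATAAA varied: it lay after the RefSeq start site in Hist1h2ad, Hist1h2ah and Hist1h2ak and 33 bases before it in Hist1h2an. In the H4 genes it lay between 2 (Hist1h4j) and 250 (Hist1h4f) bases before the start site. Windows of some neighbouring H2A and H2B genes overlap, so 1 site can count in both classes.

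The mean levels of the family ranged from 6.80 to 12.17 on the log2 scale. A mean log2 intensity above 10 was seen for 10 members: Hist1h1c, Hist2h2ac, Hist2h3b and 7 H2B genes (Hist1h2bc, Hist1h2bf, Hist1h2bh, Hist1h2bj, Hist1h2bk, Hist1h2bm and Hist1h2bn). Under 7.5, close to background, lay 30 members, among them 5 of 6 H1, 7 of 15 H2A, 8 of 15 H2B, 5 of 9 H3 and 5 of 11 H4 genes. The remaining members lay between 7.5 and 10, among them Hist1h4h, the brightest H4 gene, at 8.89. The mean was above that of the median gene for 31 members. A level compares a member with itself across arrays, since probes differ in how brightly they bind.

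The response to UUO was tested in each genotype with limma and Benjamini-Hochberg adjustment over all 18132 genes. In WT kidneys 9 of 56 members passed an adjusted p of 0.05, 5 higher (8.93%) and 4 lower (7.14%) after UUO. Of all genes, 6.97% passed as higher and 8.22% as lower, so the share in the family was near that of the table. In IL-33 KO kidneys 17 members passed, 8 higher (14.3%) and 9 lower (16.1%), against 10.6% of all genes as higher and 11.2% as lower. The median difference over the 56 members was 0.03 in WT and 0.01 in IL-33 KO on the log2 scale, beside -7.59e-04 and -5.70e-04 over all genes. Members passed in both directions and by class: in IL-33 KO 6 H2A and 2 H3 genes were higher, and 7 H4, 1 H2A and 1 H2B gene were lower. None of the 9 WT calls held under every alternative, and with WT control 3812 left out 1 member (1.79%) and 4.46% of all genes passed. In WT 2 H3, 1 H2A, 1 H1 and 1 H4 gene were higher, and 2 H2B, 1 H2A and 1 H4 gene were lower. The same 6 members passed in both genotypes in the same direction, 3 higher (Hist1h2ao, Hist2h3b, Hist2h3c1) and 3 lower (Hist2h2aa1, Hist2h2be, Hist1h4j). A further 11 passed in IL-33 KO and 3 in WT, and 36 passed in neither. The share of all genes that passed in both genotypes was not counted, so nothing is read from how many were shared.

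**Figure D1:**
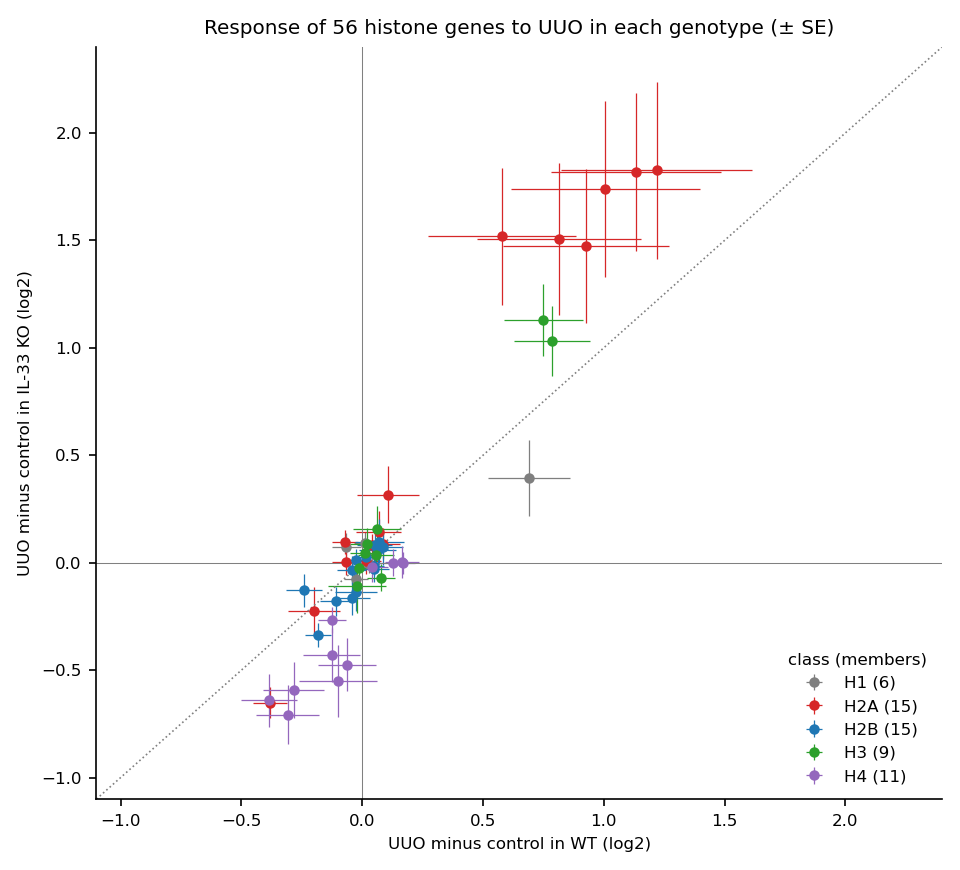
Difference between UUO and control kidneys (log2, ± SE) in WT on the x axis and in IL-33 KO on the y axis for each of the 56 members, coloured by class. The 6 H2A genes at the upper right lie between 0.58 and 1.22 in WT and between 1.47 and 1.83 in IL-33 KO, 2 H3 genes lie next to them, 7 H4 genes lie below 0 on both axes, and the dotted line marks equal responses.

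H2A genes gave the largest rises of the family. Hist1h2ad, Hist1h2af, Hist1h2ah, Hist1h2ak, Hist1h2an and Hist1h2ao, which encode core histone H2A, rose 2.78-fold to 3.55-fold after UUO in IL-33 KO kidneys. Hist1h2ad had log2 intensities of 7.15 and 7.5 in the IL-33 KO controls and of 8.47, 8.50, 9.28, 9.40 and 10.10 after UUO. All 5 UUO arrays lay above both controls, and the difference was 1.83 ± 0.41 (SE), 3.55-fold (limma, adjusted p = 0.00454). In WT it was 7.15 in both controls and 7.53, 8.40 and 9.23 as the lowest, median and highest of the 7 UUO arrays. These groups did not overlap either, with a difference of 1.22 ± 0.39 (limma, adjusted p = 0.0503). The value in WT thus missed the threshold narrowly. It passed without array 3820, its lowest WT UUO array, at 1.36 (limma, adjusted p = 0.0144), and without array 3818, at 1.27 (limma, adjusted p = 0.0470). It did not pass without array 3819, 3892, 3893, 3894 or 3895 (limma, adjusted p = 0.0656 to 0.0790).

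Hist1h2ao, the brightest of these 6, had 8.45 and 8.97 in the IL-33 KO controls and 10.08, 10.17, 10.48, 10.54 and 11.37 after UUO. It rose by 1.82 ± 0.37 on the log2 scale, 3.52-fold (limma, adjusted p = 0.00213). In WT it had 8.50 and 8.57 in the controls and 8.78, 9.77 and 10.45 as the lowest, median and highest after UUO. It was the H2A gene that passed as higher in WT, by 1.13 ± 0.35, 2.19-fold (limma, adjusted p = 0.0417), and the groups did not overlap. That call was lost in 12 of 25 alternatives, among them leaving out control 3811 or 3812 (limma, adjusted p = 0.227 and 0.206).

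Hist1h2ak had 7.26 and 7.29 in the IL-33 KO controls and 8.27, 8.68, 9.04, 9.14 and 9.94 after UUO, a rise of 1.74 ± 0.41, 3.34-fold (limma, adjusted p = 0.00591). In WT the controls had 7.16 and 7.28, and the lowest, median and highest of the UUO arrays were 7.24, 8.19 and 9.05. The lowest UUO array, 3820, lay between the controls, and the difference of 1.01 ± 0.39 did not pass (limma, adjusted p = 0.107). Hist1h2an had 7.03 and 7.22 in the IL-33 KO controls and 8.14, 8.14, 8.80, 8.89 and 9.25 after UUO, a rise of 1.52 ± 0.32, 2.86-fold (limma, adjusted p = 0.00286). In WT it had 7.11 and 7.24 in the controls and 6.99, 7.78 and 8.26 as the lowest, median and highest after UUO. Array 3820 lay below both controls, and the difference of 0.58 ± 0.31 did not pass (limma, adjusted p = 0.263). Hist1h2af and Hist1h2ah rose by 1.47 and 1.51 in IL-33 KO (limma, adjusted p = 0.00730 and 0.00596), with values of 0.93 and 0.82 in WT that did not pass (limma, adjusted p = 0.0881 and 0.135).

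The 6 genes were grouped because they passed as higher in IL-33 KO, so that 6 of 6 passed there was fixed by the choice. They followed each other from array to array. Array 3820 was the lowest of the 7 WT UUO arrays for 6 of 6, and array 3819 the highest for 6 of 6. Among the 5 IL-33 KO UUO arrays, 3821 was the highest and 3898 the lowest for 6 of 6. A probe may bind transcripts of several of these genes, and its part in the shared profile was not tested. Without array 3820, 5 of the 6 passed as higher in WT, with differences of 0.95 to 1.36. Hist1h2an did not pass, at 0.71 (limma, adjusted p = 0.0812). The members that passed in WT then came to 13 (23.2%) in place of 9 (16.1%). The share of all genes rose as well, from 15.2% to 19.7%. It was 2 of the 6 without array 3818, and 0 of the 6 without any other WT array, the controls 3811 and 3812 included. In IL-33 KO 6 of 6 passed, but without control array 3813 only Hist1h2an did (limma, adjusted p = 0.0466), the other 5 having adjusted p-values of 0.0527 to 0.0703 with 1 control left. Without control array 3814, 4 of 6 passed, with Hist1h2af and Hist1h2ak at 0.0596 and 0.0538.

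**Figure D2:**
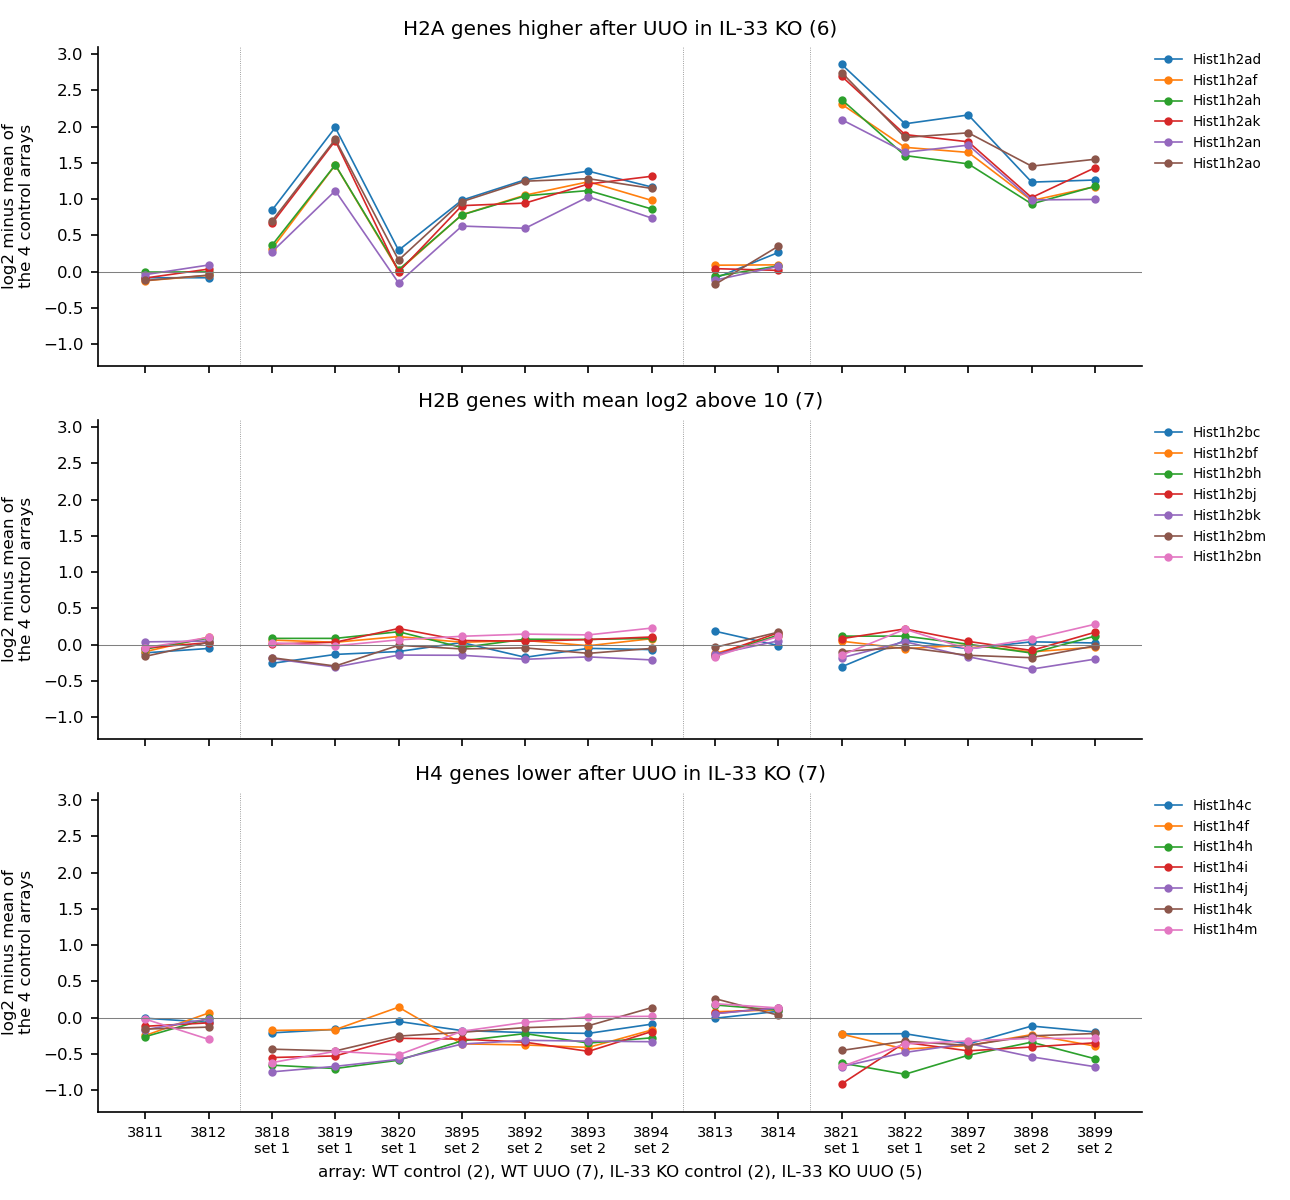
Log2 intensity of each array minus the mean of the 4 control arrays of that gene, for the 6 H2A genes higher after UUO in IL-33 KO, the 7 H2B genes with a mean log2 above 10 and the 7 H4 genes lower after UUO in IL-33 KO. The arrays are in order of group, with dotted lines between groups. The H2A lines rise and fall together, while the H2B lines stay near 0 in every array. Among the WT UUO arrays the H2A lines are lowest in 3820, and among the IL-33 KO UUO arrays they are highest in 3821.

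Hist1h2ag, an H2A gene near background, did not pass but had a like order of arrays. It had 6.83 and 6.81 in the IL-33 KO controls and 6.89, 6.93, 7.13, 7.27 and 7.46 after UUO, without overlap, with a difference of 0.32 ± 0.13 (limma, adjusted p = 0.118). Its lowest and highest WT UUO arrays were 3820 and 3819 and its highest IL-33 KO UUO array 3821, as for the 6 genes, and its WT difference was 0.11 ± 0.13 (limma, adjusted p = 0.704). Hist2h2aa1, an H2A gene of the chromosome 3 cluster, fell in both genotypes. It had 9.15 and 9.23 in the WT controls and 8.66, 8.85 and 8.92 as the lowest, median and highest after UUO, and it fell by 0.38 on the log2 scale (SE 0.07, limma, adjusted p = 0.00223, or 0.0609 without control 3812). The IL-33 KO arrays had 9.37 and 9.52 in the controls and 8.67, 8.77, 8.81, 8.84 and 8.88 after UUO, and it fell by 0.65 (SE 0.07, limma, adjusted p = 3.83e-05). All UUO arrays lay below all controls of their genotype. Hist2h2ac, the brightest H2A gene, had 11.60 and 11.72 in the WT controls and 11.53, 11.81 and 11.85 as the lowest, median and highest after UUO. The IL-33 KO values were 11.77 and 11.87 in the controls and 11.80, 11.86, 11.98, 12.08 and 12.10 after UUO. The groups overlapped in both genotypes, with differences of 0.07 ± 0.09 and 0.14 ± 0.10 (limma, adjusted p = 0.751 and 0.371). The remaining 6 H2A genes (Hist1h2aa, Hist1h2ab, Hist1h2ac, Hist1h2ae, Hist2h2ab and Hist3h2a) were dim and did not pass in either genotype. At this brightness a miss does not show that a gene lacked a rise.

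H2B genes, whose protein pairs with H2A in the nucleosome, had small differences. The 7 bright H2B genes had differences of -0.24 to 0.09 in WT and -0.16 to 0.10 in IL-33 KO. Hist1h2bf, the brightest member of the family, had 12.06 and 12.26 in the WT controls, 12.14, 12.22 and 12.27 as the lowest, median and highest of the WT UUO arrays, 12.04 and 12.28 in the IL-33 KO controls and 12.06, 12.10, 12.12, 12.15 and 12.21 after UUO in IL-33 KO. All 4 groups overlapped, and the differences were 0.05 ± 0.06 in WT and -0.03 ± 0.06 in IL-33 KO (limma, adjusted p = 0.726 and 0.847). Hist1h2bk had 10.30 and 10.31 in the WT controls and 9.95, 10.07 and 10.12 as the lowest, median and highest after UUO. It fell in WT by 0.24 (SE 0.07, limma, adjusted p = 0.0400), with no overlap, but the call was lost in 12 of 25 alternatives, among them leaving out any of 3811, 3812, 3819, 3892, 3893 or 3894 (limma, adjusted p up to 0.230). Its IL-33 KO arrays had 10.13 and 10.31 in the controls and 9.92, 10.06, 10.08, 10.09 and 10.30 after UUO, groups that overlapped, with a difference of -0.13 ± 0.08 (limma, adjusted p = 0.300). Hist2h2be, a dim H2B gene, had 7.38 and 7.5 in the WT controls and 7.14, 7.23 and 7.34 as the lowest, median and highest after UUO. It fell by 0.18 in WT (SE 0.05, limma, adjusted p = 0.0303, or 0.0576 and 0.375 without control 3811 or 3812). In the IL-33 KO kidneys it had 7.63 and 7.70 in the controls and 7.29, 7.31, 7.33, 7.33 and 7.39 after UUO, and it fell by 0.34 (SE 0.06, limma, adjusted p = 5.14e-04). The remaining 7 H2B genes (Hist1h2ba, Hist1h2bb, Hist1h2be, Hist1h2bg, Hist2h2bb, Hist3h2ba and Hist3h2bb) had means of 6.83 to 6.93, near background, and none passed.

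Several H2A genes stand head to head with an H2B gene, on opposite strands with start sites under 500 bases apart, so that 1 stretch of DNA serves as promoter of both. Among the members with windows there were 6 such pairs, with 164 to 281 bases between the RefSeq start sites. In 3 of them the H2A gene was among those that rose in IL-33 KO and its H2B neighbour did not. Hist1h2ad rose by 1.83 and its neighbour Hist1h2bf, whose start lies 174 bases away, had a difference of -0.03. Hist1h2ak rose by 1.74 and Hist1h2bn, 164 bases away, had 0.10. Hist1h2ah rose by 1.51 and Hist1h2bk, 178 bases away, had -0.13. The 3 neighbours had a mean log2 above 10 and the 3 H2A genes lay near 7 in the controls, so the members of a pair also differed in brightness. In the other 3 pairs (Hist1h2ae with Hist1h2bg, Hist1h2ag with Hist1h2bj, Hist1h2aa with Hist1h2ba) neither gene passed.

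**Figure D3:**
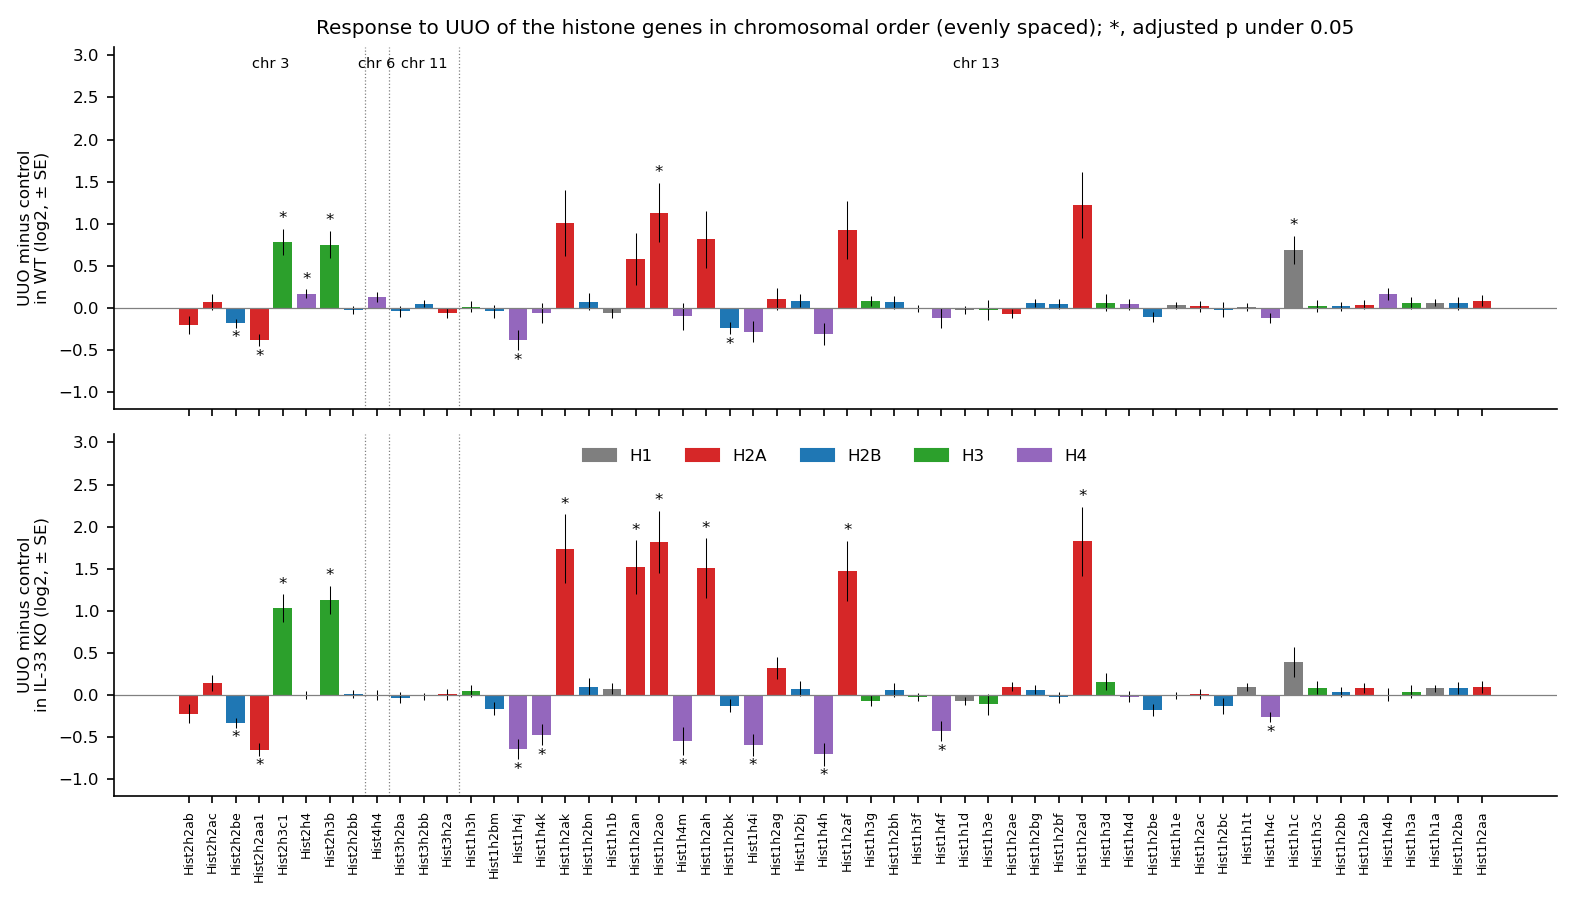
Difference between UUO and control kidneys (log2, ± SE) in WT (top) and IL-33 KO (bottom) for the 56 members in their order along chromosomes 3, 6, 11 and 13, evenly spaced, coloured by class. Stars mark an adjusted p under 0.05, and rises of H2A genes and falls of H4 genes stand side by side along chromosome 13. Most H2B, H1 and H3 genes of that chromosome lie near 0. Hist1h1c (0.69) and Hist1h2bk (-0.24) are starred in WT.

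The H3 genes that rose lay on chromosome 3. Hist2h3b and Hist2h3c1, which encode core histone H3 in the chromosome 3 cluster, rose in both genotypes. Hist2h3b, the brightest H3 gene, had 9.49 and 9.70 in the WT controls and 9.93, 10.42 and 10.56 as the lowest, median and highest after UUO, a rise of 0.75 ± 0.16, 1.68-fold (limma, adjusted p = 0.00607). In IL-33 KO it had 9.45 and 9.58 in the controls and 10.29, 10.63, 10.73, 10.79 and 10.79 after UUO, a rise of 1.13 ± 0.17, 2.19-fold (limma, adjusted p = 2.42e-04). Every UUO array lay above every control of its genotype, but the WT call was lost without control 3812 (limma, adjusted p = 0.118). Hist2h3c1 had 8.70 and 8.75 in the WT controls and 9.0, 9.62 and 9.74 as the lowest, median and highest after UUO, a rise of 0.78 ± 0.16 (limma, adjusted p = 0.00373). Hist2h3c1 in IL-33 KO had 8.78 and 8.80 in the controls and 9.61, 9.74, 9.85, 9.95 and 9.97 after UUO, a rise of 1.03 ± 0.16 (limma, adjusted p = 3.74e-04). These groups did not overlap either, and its WT call was lost without control 3811 or 3812 (limma, adjusted p = 0.0568 and 0.0522). Both genes kept their call in IL-33 KO without either control. The 7 H3 genes of chromosome 13 (Hist1h3a, Hist1h3c, Hist1h3d, Hist1h3e, Hist1h3f, Hist1h3g and Hist1h3h) had differences of -0.11 to 0.16 in IL-33 KO and none passed in either genotype, but only Hist1h3d and Hist1h3e had means above 7.5.

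Most H4 genes fell in IL-33 KO. Of 11 H4 genes, 7 were lower after UUO in IL-33 KO, by 0.26 to 0.71 on the log2 scale (Hist1h4c, Hist1h4f, Hist1h4h, Hist1h4i, Hist1h4j, Hist1h4k and Hist1h4m). Without control array 3813, 4 of the 7 passed (Hist1h4c, Hist1h4h, Hist1h4i and Hist1h4j), and without 3814, 3 did (Hist1h4h, Hist1h4j and Hist1h4k), so Hist1h4h and Hist1h4j passed with either control left out. The share with all arrays, 63.6% of the class, compares with 11.2% of all genes. Dim genes pass less often, and 8 of the 11 H4 genes were brighter than the median gene. With brighter genes alone, 54.8% of the members and 44.4% of all genes passed in either direction in IL-33 KO. The excess over 11.2% is therefore not read as a trait of H4. These genes encode the same H4 protein, and a probe of 1 may bind transcripts of others. Hist1h4h, the brightest, had 9.36 and 9.43 in the IL-33 KO controls and 8.48, 8.63, 8.69, 8.74 and 8.92 after UUO. It fell by 0.71 (SE 0.14, limma, adjusted p = 0.00149), which is 1.63-fold. In WT it had 9.0 and 9.25 in the controls and 8.56, 8.91 and 9.04 as the lowest, median and highest after UUO, with overlap and a difference of -0.31 ± 0.13 (limma, adjusted p = 0.141).

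Hist1h4j was the H4 gene that fell in both genotypes. It had 8.41 and 8.56 in the WT controls and 7.83, 8.21 and 8.26 as the lowest, median and highest after UUO, and it fell by 0.38 (SE 0.12, limma, adjusted p = 0.0369), a call lost without 3811, 3812 or 3819 (limma, adjusted p = 0.111, 0.316 and 0.0544). In IL-33 KO it had 8.63 and 8.71 in the controls and 7.90, 7.90, 8.03, 8.09 and 8.22 after UUO, and it fell by 0.64 (SE 0.12, limma, adjusted p = 0.00134). Hist1h4i had 8.80 and 8.88 in the IL-33 KO controls and 7.83, 8.29, 8.34, 8.40 and 8.40 after UUO, and it fell by 0.59 (SE 0.13, limma, adjusted p = 0.00402). In WT Hist1h4i had 8.63 and 8.67 in the controls and 8.19, 8.41 and 8.55 after UUO, with no overlap, but the difference of -0.28 ± 0.13 did not pass (limma, adjusted p = 0.164). Hist1h4m had 7.98 and 8.04 in the IL-33 KO controls and 7.18, 7.49, 7.53, 7.56 and 7.56 after UUO, and it fell by 0.55 (SE 0.17, limma, adjusted p = 0.0284, or 0.0541 without UUO array 3821). In WT it had 7.55 and 7.83 in the controls and 7.23, 7.66 and 7.87 after UUO, with overlap and a difference of -0.10 ± 0.16 (limma, adjusted p = 0.793).

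After UUO the arrays of set 1 lay below those of set 2 on average for Hist1h4m and Hist1h4h, in both genotypes. The mean of Hist1h4m was 7.32 in the 3 WT arrays of set 1 and 7.79 in the 4 of set 2, while the IL-33 KO means were 7.33 and 7.55. For Hist1h4h the WT means were 8.61 and 8.97, and those of IL-33 KO 8.55 and 8.78. The controls carry no set, so its part in the comparison with them was not tested. Hist2h4 was the H4 gene that rose in WT. It lay near background, at 6.78 and 6.92 in the WT controls and 6.97, 6.99 and 7.10 as the lowest, median and highest after UUO, a rise of 0.17 ± 0.05 (limma, adjusted p = 0.0293, or 0.422 without control 3811). Hist2h4 in IL-33 KO had 6.84 and 6.97 in the controls and 6.86, 6.89, 6.91, 6.92 and 6.93 after UUO, a difference of -3.06e-04 ± 0.05 (limma, adjusted p = 0.998). The other 3 H4 genes (Hist1h4b, Hist1h4d and Hist4h4) had means of 6.90 to 7.06 and did not pass.

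Of the H1 genes only Hist1h1c was bright, with a mean of 11.76, while the other 5 (Hist1h1a, Hist1h1b, Hist1h1d, Hist1h1e and Hist1h1t) had means of 6.80 to 7.12. Hist1h1c encodes a linker histone also made outside S phase. It had 11.12 and 11.26 in the WT controls and 11.46, 11.94 and 12.15 as the lowest, median and highest after UUO, with no overlap. It rose by 0.69 ± 0.17, 1.61-fold (limma, adjusted p = 0.0127), a call lost without control 3811 or 3812 (limma, adjusted p = 0.145 and 0.0830). In IL-33 KO it had 11.48 and 11.58 in the controls and 11.72, 11.74, 11.78, 12.18 and 12.19 after UUO. These groups did not overlap either, but the difference of 0.39 ± 0.18 did not pass (limma, adjusted p = 0.143). After UUO the arrays of set 1 were brighter on average in both genotypes, with means of 12.07 against 11.73 in WT and 12.18 against 11.75 in IL-33 KO. None of the 5 dim H1 genes passed, and their differences lay between -0.08 and 0.09 in both genotypes.

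**Figure D4:**
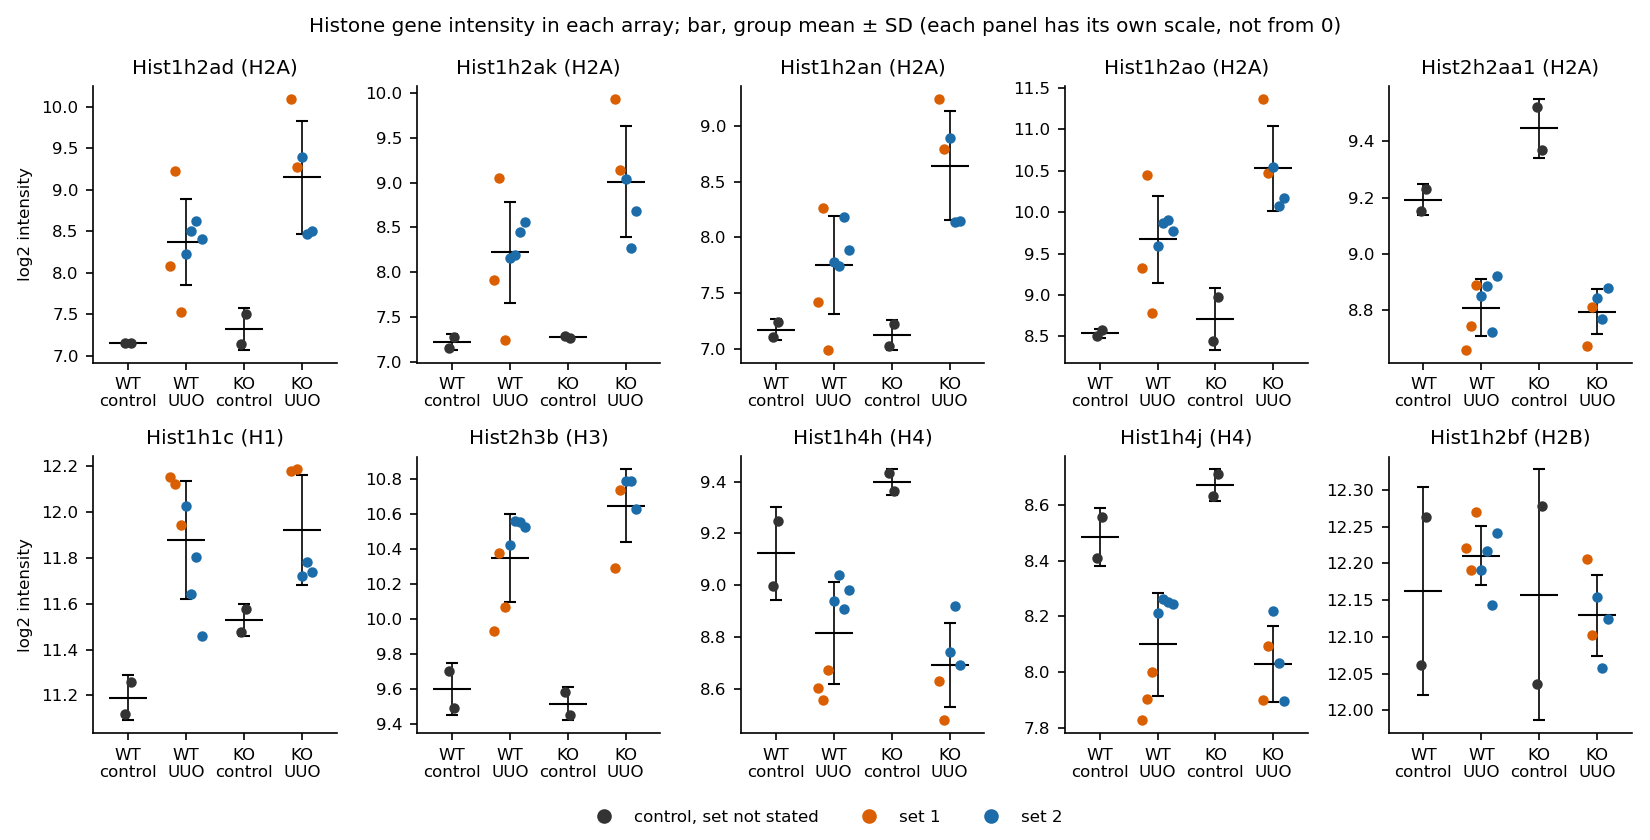
Log2 intensity of 10 members in each array, by group, with the group mean ± SD as a bar and the set of the UUO arrays as colour. The scales differ between panels and do not start at 0. In the IL-33 KO group all UUO arrays lie above the controls for the 4 Hist1h2a genes, Hist1h1c and Hist2h3b and below them for Hist2h2aa1, Hist1h4h and Hist1h4j, while those of Hist1h2bf overlap.

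Whether the response to UUO differed between the genotypes was tested as an interaction. None of the 56 members passed an adjusted p of 0.05 in limma, and 0% of all genes did. At an unadjusted p under 0.05 there were 4 members (7.14%), against 4.74% of all genes, and these were Hist2h2aa1, Hist2h4, Hist1h4k and Hist1h2ae. The difference between the responses was 0.55 to 0.94 for the 6 H2A genes and -0.45 to -0.14 for the 7 H4 genes. A gene that passed in IL-33 KO and not in WT is therefore not shown to respond differently. The 6 and the 7 genes were chosen by their calls in IL-33 KO, and that response enters this difference. The direction of both ranges was thus favoured by the choice, and nothing is read from it. With 2 controls a genotype, the SE of the interaction was 0.44 to 0.57 for the 6 H2A genes.

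In the control kidneys 0 of 56 members differed between the genotypes at an adjusted p of 0.05 in limma, as did 0% of all genes. At an unadjusted p under 0.05 there were 3 members (5.36%), against 3.66% of all genes: Hist2h2be and Hist2h2aa1, higher in IL-33 KO by 0.23 and 0.25, and Hist1h2ae, lower by a difference of -0.18. The 7 H4 genes that fell in IL-33 KO had higher means in the IL-33 KO than in the WT controls, by 0.08 to 0.32. After UUO they differed by -0.13 to -0.07. These 7 were chosen by a comparison with the same IL-33 KO controls, so high values there are partly built in. All 11 H4 genes had higher means in the IL-33 KO controls, by 0.05 to 0.32, so this was not particular to the 7.

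IL-33 KO and WT kidneys after UUO form the contrast in which the family came to notice, so its values are a description. In limma over the 12 UUO arrays 0 of 56 members passed an adjusted p of 0.05, and 0.00552% of all genes did, which was Il33 itself. At an unadjusted p under 0.05 there were 12 members (21.4%), 9 higher and 3 lower in IL-33 KO, beside 10.3% of all genes. Since this contrast chose the family, nothing is read from that share. The members among these were the 6 H2A genes, Hist2h2ac, Hist2h3b and Hist2h3c1 as higher and Hist2h4, Hist3h2bb and Hist1h2bf as lower. The 3 largest differences were those of Hist1h2an, 0.89 ± 0.24 or 1.85-fold, Hist1h2ao, 0.86 ± 0.27 or 1.81-fold, and Hist1h2ak, 0.79 ± 0.31 or 1.73-fold. The groups overlapped for all 6 H2A genes: Hist1h2an reached from 6.99 to 8.26 in WT and from 8.14 to 9.25 in IL-33 KO.

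For the 6 H2A genes that difference was larger in set 1 than in set 2, but a dependence on the set was not tested. In set 1 the 6 H2A genes were higher in IL-33 KO by 1.37 to 1.47, and in set 2 by 0.25 to 0.49. For Hist1h2an it was 1.46 in set 1 and 0.49 in set 2. Set 1 holds the WT array with the lowest values of these genes, 3820, and the IL-33 KO array with the highest, 3821, and also the WT array with the highest, 3819. It also holds array 3818, which like 3820 lay nearer to the controls. Hist2h3b and Hist2h3c1 were higher in IL-33 KO by 0.39 and 0.40 in set 1 and by 0.22 and 0.24 in set 2. The bright H2B genes differed by -0.07 to 0.15 in set 1 and by -0.09 to 0.07 in set 2.

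**Figure D5:**
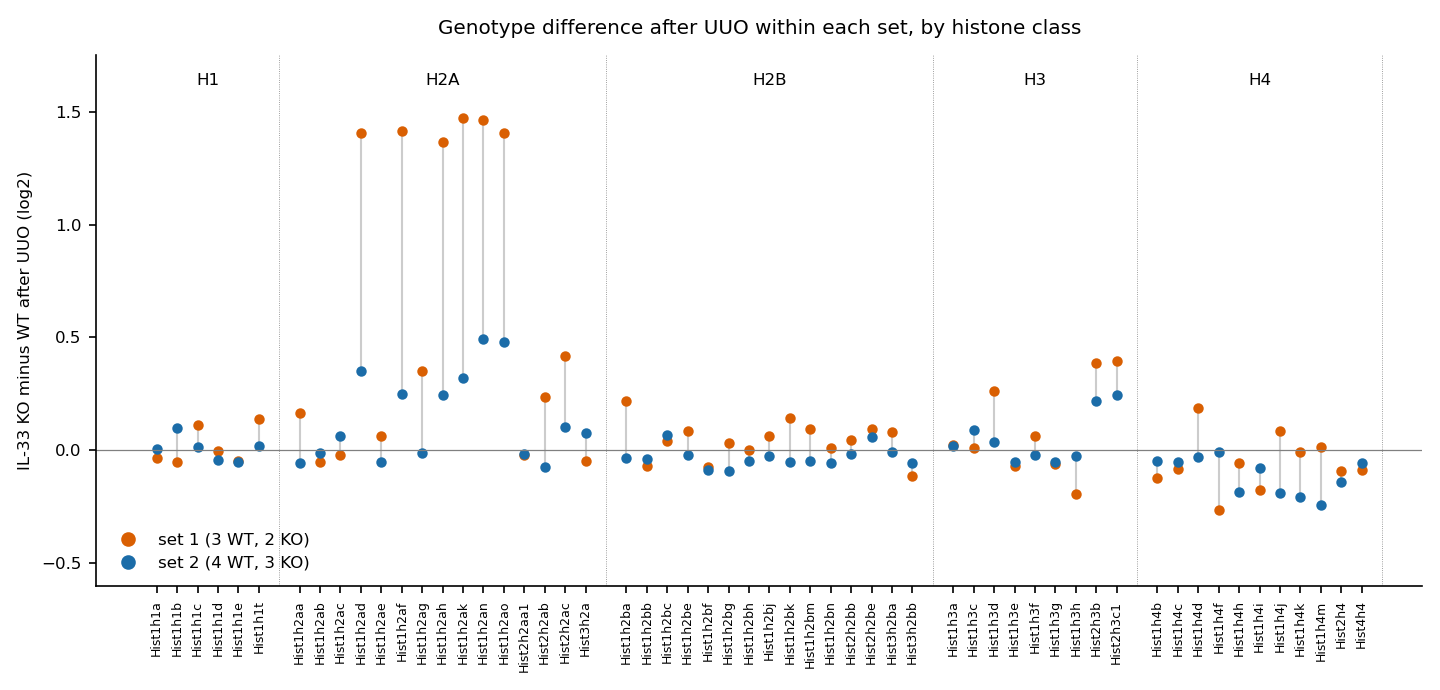
Mean of the IL-33 KO arrays minus mean of the WT arrays after UUO (log2) within set 1 and within set 2 for each of the 56 members, grouped by class, with a line joining the values of 1 gene. The 6 H2A genes lie between 1.37 and 1.47 in set 1 and between 0.25 and 0.49 in set 2, while most other members lie near 0 in both sets.

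Other genes of the pathway were counted from lists of known function. Of 26 measured genes of DNA replication and S phase, 13 rose and 0 fell in WT (50%) and 17 rose and 0 fell in IL-33 KO (65.4%), where 6.97% and 10.6% of all genes rose. Among them Uhrf1, a factor of DNA methylation during replication, rose by 1.20 and 1.31 in WT and IL-33 KO. Mcm5, a subunit of the replicative helicase, rose by 1.28 and 1.49, Mcm4 by 0.95 and 1.07, and Pold1, a DNA polymerase subunit, by 0.81 and 1.04 (limma, adjusted p under 0.05 in each). Of 16 genes of G2 and mitosis, 0 passed in WT and 3 rose in IL-33 KO (Birc5 by 0.54, Cdk1 by 0.28 and Tpx2 by 0.18), and 10 of the 16 were at or below the brightness of the median gene. The mean log2 intensity over the replication genes was 7.38 in WT UUO array 3820 and 7.56 to 7.82 in the other WT UUO arrays. Both WT controls had 7.30. The array lowest in the 6 H2A genes was thus also the lowest here. This was not particular to replication, since 3820 was also the lowest WT UUO array for G2 and mitosis, at 6.90. It was the lowest as well for the histone mRNA factors (7.54), variants (8.51) and chaperones (8.38) of the next paragraph. The highest array differed: 3819, highest for the 6 H2A genes, had 7.76 over the replication genes, below the 7.82 of another array.

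Of 21 factors of histone mRNA synthesis and processing, 2 rose and 1 fell in WT (14.3%), and 2 rose and 2 fell in IL-33 KO (19.0%), shares near the 15.2% and 21.8% of all genes that passed in either direction. Cdk2, the S phase kinase, rose by 0.37 in WT and 0.56 in IL-33 KO, and E2f1, a transcription factor of S phase entry, by 0.42 and 0.32. Upf1, a helicase that takes part in histone mRNA decay, fell by 0.14 and 0.31. Zcchc6, a uridylyl transferase, fell by 0.22 in IL-33 KO. Slbp, the stem-loop binding protein, lay at background, at 6.74 in WT and 6.80 in IL-33 KO controls, with differences of -0.00201 ± 0.04 and -0.03 ± 0.04 that did not pass. Npat was not analysed here. Of 11 measured histone variants made outside S phase, 3 rose in both genotypes: H2afz, a variant of H2A, by 0.61 in WT and 1.05 in IL-33 KO, H3f3b by 0.65 and 0.82, and H3f3a by 0.28 and 0.43, the last 2 encoding the variant H3.3. H2afj fell by 0.42 in WT. Of 17 histone chaperones and assembly factors, 6 rose and 0 fell in WT, and 6 rose and 1 fell (Asf1a, by 0.19) in IL-33 KO. The 6 were Chaf1b, a subunit of the assembly factor CAF-1, by 0.59 and 0.78, Nasp, which holds H3 and H4, by 0.34 and 0.43, Rbbp7 by 0.74 and 0.96, the acetyltransferase Hat1 by 0.66 and 0.91, the importin Ipo4 by 0.61 and 0.93, and Npm1 by 0.70 and 0.97.

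Markers of the cells in the kidney moved with UUO as well. Of 8 measured kidney epithelial markers, 5 fell and 0 rose in each genotype (62.5%). Of all genes, 8.22% fell in WT and 11.2% in IL-33 KO. The mean log2 intensity of the 8 was 11.17 to 11.26 in WT controls, 10.01 to 10.94 in WT UUO, 11.11 to 11.22 in IL-33 KO controls and 10.15 to 10.24 in IL-33 KO UUO, and none of the 8 was at or below the median gene. Slc12a1, of the thick ascending limb, fell, with differences of -3.12 in WT and -3.13 in IL-33 KO, as did Aqp2, of the collecting duct, with -1.08 and -1.42. Of 10 leukocyte markers, 2 rose and 1 fell in WT (30%), and 4 rose and 1 fell in IL-33 KO (50%). Of all genes, 15.2% and 21.8% passed in either direction. S100a8 of neutrophils had differences of 1.54 and 2.58 and Cd68 of macrophages 0.62 and 0.96. The median difference over the 10 markers was only 0.03 in WT and 0.07 in IL-33 KO, and the lowest -0.41 and -0.36. The mean log2 intensity of the 10 was 7.47 to 7.54 in WT controls, 7.53 to 8.05 in WT UUO, 7.22 to 7.43 in IL-33 KO controls and 7.75 to 8.15 in IL-33 KO UUO. Of the 10, 4 were at or below the median gene. Of 4 erythroid markers none passed, with means of 9.44 to 10.02, 8.39 to 10.21, 9.78 to 9.83 and 8.46 to 9.44 in the same groups. Their part in the responses of the histone genes was not tested.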

How the data were processed

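Kidney RNA was labeled with an Illumina Total Prep RNA kit and hybridized to MouseRef-8 v2 BeadChips. Per the labels the arrays were read with BeadStudio 2, and the authors imported them with beadarray. The authors deposited linear intensities, 1 per gene, with array medians of 132 to 133. Background correction, normalization and the joining of probes are not given in the sources used here. No detection p-values were at hand, so all 18132 genes and all 56 members were tested.

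Here intensities were quantile-normalized over 16 arrays and taken to log2 in R 4.3.3. The contrasts came from limma 3.58.1 (lmFit, eBayes), with Benjamini-Hochberg adjustment over all genes and an adjusted p of 0.05 as threshold. IL-33 KO against WT after UUO was fitted on the 12 UUO arrays, the other contrasts on 4 groups together. The fits were tested on simulated data. Alternatives were other scalings, prior variances and weights, brighter genes alone, each set alone, set as a block, 1 genotype alone, and leaving out each array. Tables and plots used Python 3.11.15, pandas 2.3.3 and matplotlib 3.10.9. No 2 arrays were alike (highest correlation 0.997), and precision is limited by how many arrays there were.

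Members were found by symbol, and all matched 1 RefSeq gene by a unique name or synonym. The members, the gene lists and the motifs were chosen with earlier results of these data known. Values are given in full for members passing in either response, at most 4 per class and genotype, the brightest of each class, Hist1h2an, and the 3 with the largest difference between genotypes after UUO. Of other lists, members that passed are named in part. The H2A and H4 groups were formed from their calls in IL-33 KO, after the values were seen.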

Additional observations from a re-analysis of the deposited data

Results flagged for a closer look

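In each of the 56 members, the 7 WT UUO arrays and the 5 IL-33 KO UUO arrays were examined for a highest or lowest array set off from the rest, and 8 of 112 groups held one. Chance flags about 1 group in 20. Hist1h4i had 7.83 in IL-33 KO UUO array 3821, against 8.29 to 8.40 in the other 4, and Hist1h4m had 7.18 in the same array, against 7.49 to 7.56. That array was also the highest for the 6 H2A genes. Hist1h2bk had 9.95 in WT UUO array 3819, against 10.05 to 10.12 in the other 6. The remaining 5 were dim members. Hist1h1a had 6.74 in IL-33 KO UUO array 3822, against 6.82 to 6.84, and Hist1h1b had 7.31 in array 3899, against 7.08 to 7.13. Hist1h2ae had 6.97 in WT UUO array 3892, against 6.85 to 6.90, and 7.05 in IL-33 KO UUO array 3822, against 6.82 to 6.85. Hist1h2be had 7.03 in IL-33 KO UUO array 3821, against 6.85 to 6.90.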

How the results depend on the processing

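The count of members passing in WT was 9 (2754 of all genes). It was 3 with set 1 alone (188 genes), 13 with set 2 alone (4241 genes), 5 with the WT arrays alone (1778 genes) and 1 to 13 with 1 array left out, namely 1 without WT control 3812 (809 genes), 2 without WT control 3811 (1051 genes) and 13 without WT UUO array 3820 (3578 genes). In IL-33 KO it was 17 (3955 genes) and lay between 9 and 17 with 1 array left out, lowest without IL-33 KO control 3813 (2276 genes). Over the alternatives 279 of 349 values of the 14 members followed in WT kept their side of the threshold, 47 lost it and 23 gained it, and 0 members passed under every alternative. In IL-33 KO 409 of 425 values of 17 members kept it and 16 lost it, and 7 passed under every alternative run. No direction turned among these. The counts of 0 for the interaction and for both comparisons of genotypes stayed at 0 under every alternative. The median difference over members moved to -0.0216 in IL-33 KO with brighter genes alone, to -0.0434 for the interaction with set 2 alone and between -0.0334 and 0.0125 with 1 array left out, to -0.0230 for IL-33 KO against WT after UUO with set 2 alone, and to 0.0902 and 0.122 for the control kidneys with the array minimum subtracted and with brighter genes alone. No paired analysis was possible because the groups share no replicate numbers. With 2 control arrays a genotype each response rests on those 2, and a leave-one-out fit assumes that the lone control varies like the other groups. The members near background have folds that are compressed.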
